A study of Oryza sativa Japonica Group with 12 samples.

Results

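Rice takes up nitrogen as nitrate and as ammonium, and the genes described here encode the carriers of both ions and 1 partner protein. The 8 genes were chosen by locus number: the nitrate transporters NRT2.1, NRT2.2, NRT2.3 and NRT1.1B, the NRT2 partner NAR2.1, and the ammonium transporters AMT1-1, AMT1-2 and AMT1-3. Of these, 6 had values among the 29358 loci measured, and NRT2.1 (LOC_Os02g02170) and AMT1-2 (LOC_Os02g40710) are not analysed here. RNA was sequenced from whole 5-day-old seedlings of the Japonica group of Oryza sativa, in 4 groups of 3 libraries. The groups were the line raf-b2/3 under mannitol and without it, and the wild type (WT, labelled NIP) under mannitol and without it. Treated seedlings had spent 6 h in 800 mM mannitol, a sugar alcohol that draws water out of plant cells, and the untreated ones are called controls. The genotype label describes raf-b2/3 as a knockdown of B2/3 RAF kinases and the protocols describe it as a mutant. The labels name no targeted loci, so no targeted gene was used as a check of the genotype. Whether the 3 libraries of a group stem from different seedling batches is not stated, so the p-values reflect differences among the sequenced libraries, possibly technical ones.

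In plants, NRT2 proteins carry nitrate at low outside concentrations, and rice NRT2.1, NRT2.2 and the longer form of NRT2.3 need NAR2.1 at the plasma membrane to do so. NRT1.1B is a nitrate transporter that also acts as a nitrate sensor, and SPX4 and NLP3 act downstream of it in rice. AMT1 proteins carry ammonium at low outside concentrations, and ammonium is the main nitrogen source of rice in flooded soil. RAF kinases of groups B2 and B3 activate SnRK2 kinases when plant cells lose water.

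Values are FPKM, fragment counts corrected for gene length and for the number of mapped fragments in a library. Whole fragments could be recovered from them, and the totals were 37534836 to 39792489 per library (median 38767828). Pearson's r across genes between libraries of a group was 0.981 to 0.993. Whole seedlings hold roots and shoots. The summed FPKM of 6 genes that mark roots was 27.2 to 32.3 in raf-b2/3 mannitol, 409 to 488 in raf-b2/3 control, 45.2 to 47.9 in WT mannitol and 87.3 to 392 in WT control. WT control 2 (87.3) stood apart from WT control 1 (365) and 3 (392). Most of this sum in the controls came from LSI1 and LSI2, and the other markers changed by unlike amounts. The sum of 4 shoot marker genes was 11691 to 13847, 19971 to 22308, 9997 to 12104 and 19269 to 21384 in the same 4 groups. No marker was at 0 in any library. Fewer cells of a type and less RNA per cell cannot be told apart in such samples, and the part of the markers' changes in the results below was not tested.

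Mannitol moved the transporter genes in opposite directions. NRT1.1B and AMT1-1 rose in both genotypes, while NAR2.1 and AMT1-3 fell in both. Changes are log2 differences of FPKM + 1, tested by limma over all 12 libraries, and a gene passed at a Benjamini-Hochberg adjusted p under 0.05. Of the 6 genes, 4 passed the filter on low values (3 or more libraries with an FPKM of at least 1), which also kept 22371 loci in all. In raf-b2/3, 2 of these 4 rose and 2 fell, against 62.2% of all loci tested that passed (35.6% higher and 26.7% lower). In WT, 2 rose and 2 fell as well, against 63.3% of loci (37.7% higher and 25.5% lower), so passing by itself does not set these genes apart. The median log2 change of the 4 was -0.32 in raf-b2/3 and -0.02 in WT, beside 0.07 and 0.09 over all loci tested.

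**Figure D1:**
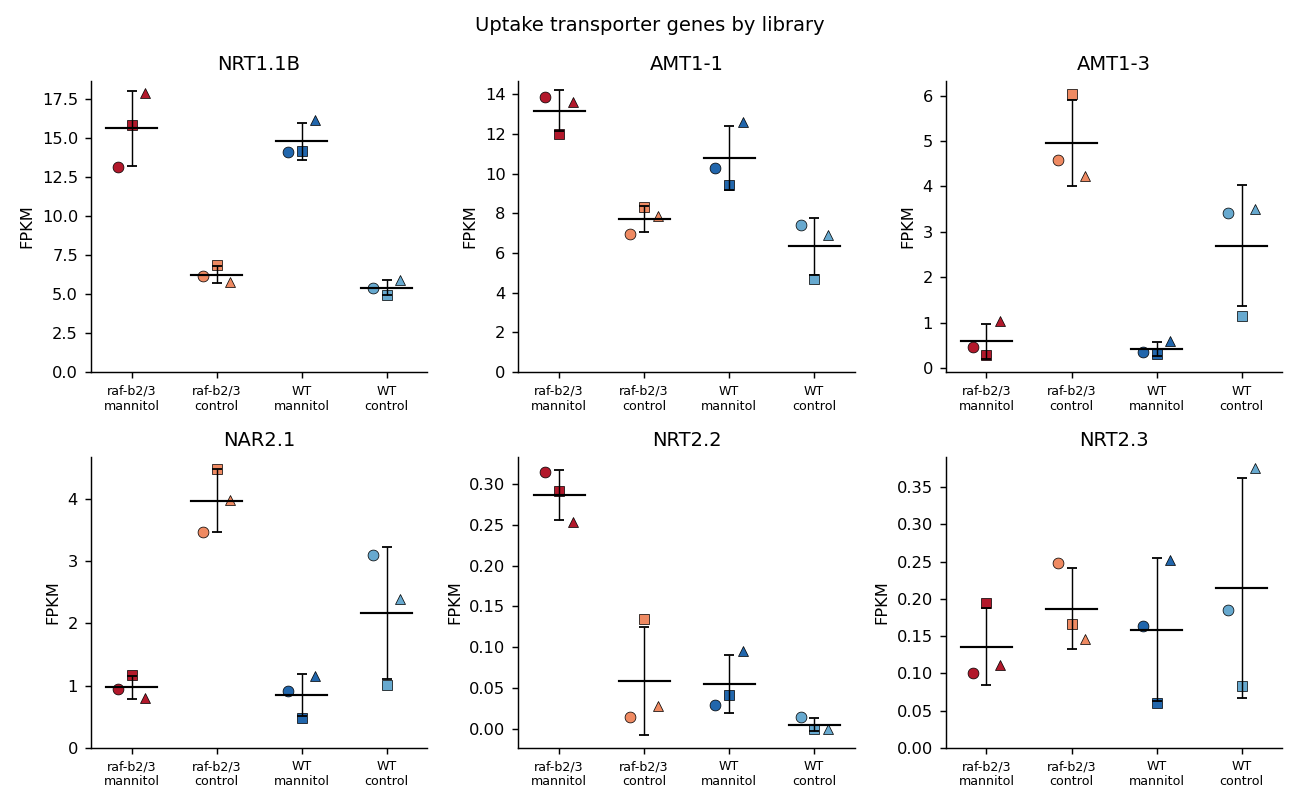
FPKM (vertical axes, linear) of the 6 transporter genes in each of the 12 libraries, by group (horizontal axis). Points are libraries, the line is the mean and the bar the SD (n = 3). NRT1.1B and AMT1-1 stood higher under mannitol in every library of both genotypes, and AMT1-3 stood lower in every one. WT control 2 was the lowest WT control library for NRT1.1B (4.94), AMT1-1 (4.69), AMT1-3 (1.16), NAR2.1 (1.004) and NRT2.3 (0.0834). For NRT2.2 it was at 0, as was WT control 3.

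NRT1.1B (LOC_Os10g40600), the nitrate transporter and sensor, rose most of the 4 tested genes under mannitol. It stood at 13.1, 15.8 and 17.9 FPKM in raf-b2/3 mannitol, against 6.13, 6.84 and 5.78 in raf-b2/3 control. In WT it stood at 14.1, 14.1 and 16.1 under mannitol, against 5.37, 4.94 and 5.92 in the controls. Every mannitol library lay above every control library, and within a treatment the genotypes overlapped. The mean was 15.6 ± 2.39 against 6.25 ± 0.539 FPKM in raf-b2/3, 2.50-fold higher, and 14.8 ± 1.17 against 5.41 ± 0.495 in WT, 2.73-fold higher (SD, n = 3 each). The log2 change was 1.19 (SE 0.11, limma adjusted p 2.0e-06) in raf-b2/3 and 1.30 (SE 0.11, limma adjusted p 7.1e-07) in WT. A rise at least as large was seen at 5.53% of loci in raf-b2/3 and 5.03% in WT. The raf-b2/3 response minus the WT response was -0.11 (SE 0.15, limma adjusted p 0.78).

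The NRT2 genes were measured at far lower levels than NRT1.1B, and neither passed the filter on low values. NRT2.2 (LOC_Os02g02190), a high-affinity nitrate transporter, had 22, 21 and 18 recovered fragments in raf-b2/3 mannitol, against 1, 10 and 2 in raf-b2/3 control. WT mannitol libraries had 2, 3 and 7 fragments of NRT2.2, against 1, 0 and 0 in WT control. The 3 raf-b2/3 mannitol libraries were thus the highest of the 12, and mannitol and control libraries did not overlap in either genotype. In FPKM its mean was 0.287 ± 0.0309 in raf-b2/3 mannitol, 0.0590 ± 0.0663 in raf-b2/3 control, 0.0552 ± 0.0356 in WT mannitol and 0.00469 ± 0.00812 in WT control (SD, n = 3). Over a group's libraries, 61 fragments in raf-b2/3 mannitol stood against 13 in raf-b2/3 control, a depth-scaled ratio of 4.78 with a 95% interval of 2.60 to 9.49. Without raf-b2/3 control 2, which held 10 of the 13, it was 13.7 (4.46 to 68.0). In WT, 12 under mannitol stood against 1 in the controls, a ratio of 12.1 with an interval of 1.79 to 517, and without WT mannitol 3 it was 7.62 (0.852 to 360), without WT control 2 7.99 (1.18 to 341) and without WT control 3 8.05 (1.19 to 344). These exact intervals cover counting error only.

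The call for NRT2.2 in WT depended on the fit. Without the filter, limma on log2(FPKM + 1) gave a change of 0.28 (SE 0.05, adjusted p 6.4e-04) in raf-b2/3 and 0.07 (SE 0.05, adjusted p 0.27) in WT. At such levels the added 1 shrinks a change. On recovered fragments, limma-voom without a filter gave 2.63 (SE 0.61, adjusted p 0.0027) in raf-b2/3 and 2.50 (SE 0.87, adjusted p 0.027) in WT. In these unfiltered fits 51.8% and 51.9% of loci passed on the log2(FPKM + 1) scale, and 52.5% and 52.6% by limma-voom, in raf-b2/3 and in WT. The difference between the responses did not pass in either (0.21, limma adjusted p 0.17, and 0.12, limma-voom adjusted p 0.98), where 2.17% and 1.19% of loci passed. The authors' deposited table gives NRT2.2 a log2 fold change of 2.21 with p 0.00797 in raf-b2/3, and 3.37 with p 0.0949 in WT. NRT2.1 and NRT2.2 are near-identical neighbours, so reads of one could have been counted for the other, and the levels of NRT2.2 are uncertain for that reason.

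NRT2.3 (LOC_Os01g50820), known in rice for carrying nitrate towards the shoot, had few fragments in every library. It had 8, 16 and 9 fragments in raf-b2/3 mannitol, against 20, 14 and 12 in raf-b2/3 control. In WT it had 13, 5 and 21 under mannitol, against 15, 7 and 31 in the controls. All 4 groups overlapped. The depth-scaled ratio of mannitol to control was 0.731 (95% interval 0.453 to 1.17) in raf-b2/3 and 0.741 (0.477 to 1.14) in WT, where it was 1.19 (0.688 to 2.11) without WT control 3. No comparison of NRT2.3 passed without the filter, with limma adjusted p of 0.55 or more in all 5 comparisons on either scale. Of the 6 genes, 5 did not overlap between mannitol and control libraries in raf-b2/3 and 4 did not in WT, against 58.5% and 59.5% of all loci in the table.

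NAR2.1 (LOC_Os02g38230), the partner that NRT2 proteins need, fell under mannitol. It stood at 0.949, 1.16 and 0.797 FPKM in raf-b2/3 mannitol, against 3.47, 4.48 and 3.97 in raf-b2/3 control. In WT it stood at 0.919, 0.483 and 1.15 under mannitol, against 3.10, 1.004 and 2.39 in the controls. The raf-b2/3 groups did not overlap, while in WT the control library 2 lay within the mannitol range. The mean was 4.10-fold lower in raf-b2/3 mannitol (0.970 ± 0.183 against 3.97 ± 0.505 FPKM) and 2.55-fold lower in WT mannitol (0.849 ± 0.337 against 2.16 ± 1.07). The log2 change was -1.34 (SE 0.23, limma adjusted p 2.6e-04) in raf-b2/3, a fall at least that large at 2.18% of loci. In WT it was -0.73 (SE 0.23, limma adjusted p 0.013), at 10.4% of loci. The WT call ended without WT control 1 (-0.51, adjusted p 0.063) or without WT mannitol 2 (-0.58, adjusted p 0.061), and without WT control 2 the change was -1.03 (adjusted p 2.5e-04).

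AMT1-1 (LOC_Os04g43070), an ammonium transporter known to be expressed in both roots and shoots, rose under mannitol. It stood at 13.9, 12.02 and 13.6 FPKM in raf-b2/3 mannitol, against 6.98, 8.31 and 7.87 in raf-b2/3 control. In WT it stood at 10.3, 9.45 and 12.6 under mannitol, against 7.43, 4.69 and 6.89 in the controls. Mannitol and control libraries did not overlap in either genotype. The mean was 13.2 ± 1.02 against 7.72 ± 0.679 FPKM in raf-b2/3 and 10.8 ± 1.62 against 6.34 ± 1.45 in WT (SD, n = 3 each), 1.71-fold and 1.70-fold higher. The log2 change was 0.70 (SE 0.14, limma adjusted p 9.7e-04) in raf-b2/3 and 0.69 (SE 0.14, limma adjusted p 9.8e-04) in WT. Their difference was 0.01 (SE 0.20, limma adjusted p 0.99). A rise at least as large was seen at 13.3% of loci in raf-b2/3 and 14.6% in WT.

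AMT1-3 (LOC_Os02g40730), an ammonium transporter known from roots, fell furthest of the 4 tested genes. It stood at 0.466, 0.296 and 1.04 FPKM in raf-b2/3 mannitol, against 4.58, 6.03 and 4.24 in raf-b2/3 control. In WT it stood at 0.358, 0.320 and 0.597 under mannitol, against 3.43, 1.16 and 3.51 in the controls. No mannitol library reached the lowest control library, WT control 2. The mean was 8.26-fold lower in raf-b2/3 mannitol (0.599 ± 0.387 against 4.95 ± 0.949 FPKM) and 6.35-fold lower in WT mannitol (0.425 ± 0.1503 against 2.70 ± 1.33). Without raf-b2/3 mannitol 3, the highest of its group, the raf-b2/3 fold was 13.0 (mean 0.381 FPKM). The log2 change was -1.91 (SE 0.26, limma adjusted p 4.9e-05) in raf-b2/3 and -1.30 (SE 0.26, limma adjusted p 8.4e-04) in WT. A fall at least as large was seen at 0.680% of loci in raf-b2/3 and 2.67% in WT. With the smaller pseudocount of 0.1 the changes were -2.98 and -2.30. AMT1-2 and AMT1-3 are neighbours on chromosome 2, and the RefSeq gene table attaches both names to both, so the name of this locus is not certain.

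**Figure D2:**
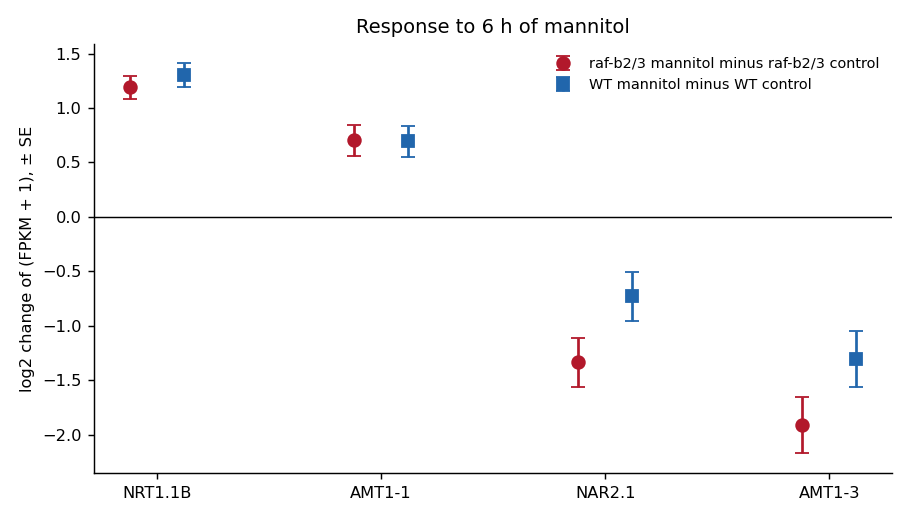
Log2 change of FPKM + 1 under mannitol (vertical axis), raf-b2/3 beside WT, for the 4 tested transporter genes. Circles (raf-b2/3) and squares (WT) are limma's estimates and error bars are their SE. NRT1.1B and AMT1-1 lay above 0 and NAR2.1 and AMT1-3 below it in both genotypes, with NAR2.1 at -1.34 and -0.73.

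Past the same adjusted p and a log2 change of 1 in size were NRT1.1B, NAR2.1 and AMT1-3 in raf-b2/3, where 12.4% of loci passed that rule (7.49% higher and 4.93% lower). In WT these were NRT1.1B and AMT1-3, where 13.8% of loci did (8.2% higher and 5.59% lower). The authors' deposited table gives changes of the same sign for all 4, with log2 fold changes of 1.25 and 1.34 for NRT1.1B and 0.70 and 0.66 for AMT1-1 in raf-b2/3 and WT. For NAR2.1 the authors' deposited table has -2.11 and -1.45, and for AMT1-3 -3.12 and -2.77.

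The opposite changes of the ammonium transporters were also compared within each library, as the ratio of AMT1-1 to AMT1-3 FPKM. This ratio was 29.8, 40.6 and 13.2 in raf-b2/3 mannitol, against 1.52, 1.38 and 1.86 in raf-b2/3 control. In WT it was 28.8, 29.6 and 21.1 under mannitol, against 2.17, 4.05 and 1.96 in the controls. AMT1-1 therefore exceeded AMT1-3 in all 12 libraries, and every ratio under mannitol lay above every ratio in the controls. The log2 ratio of AMT1-3 to AMT1-1, with 0.1 added to each, differed by -3.41 between mannitol and control within genotypes. The two-sided exact permutation p was 0.005, the smallest that the 400 arrangements allow (adjusted p 0.01 over 4 tests). Each gene already separated mannitol from control libraries in both genotypes, in opposite directions. That fixed this p in advance, so it adds no support beyond the results of the single genes. The difference between raf-b2/3 and WT within treatments was 0.35 (exact permutation p 0.25).

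**Figure D3:**
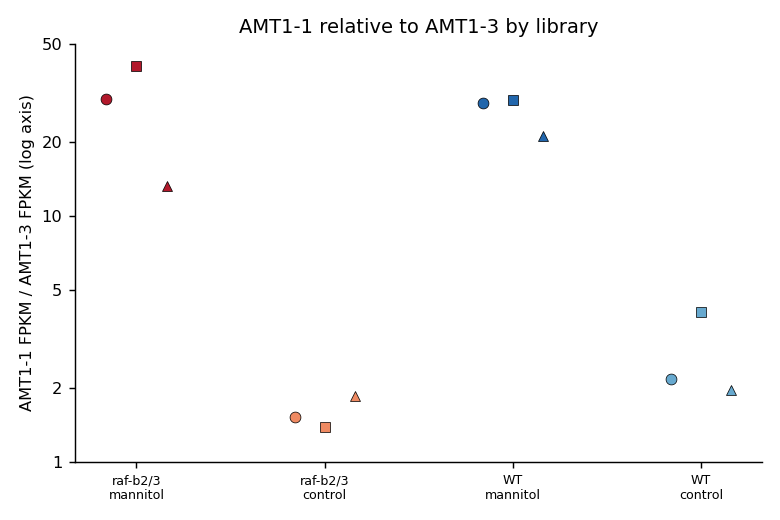
Ratio of AMT1-1 to AMT1-3 FPKM (vertical axis, logarithmic) in each library, by group. Each point is 1 library. The 6 mannitol libraries lay between 13.2 and 40.6 and the 6 control libraries between 1.38 and 4.05, with WT control 2 the highest control.

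The ratio of NAR2.1 to NRT2.3 sets the partner gene against that of 1 of its transporters. It was 9.43, 5.96 and 7.15 in raf-b2/3 mannitol, against 14.0, 26.9 and 27.2 in raf-b2/3 control. In WT it was 5.63, 7.99 and 4.54 under mannitol, against 16.7, 12.04 and 6.37 in the controls. The raf-b2/3 groups did not overlap, while WT control 3 (6.37) lay below WT mannitol 2 (7.99). Ratios were tested with 0.1 added to each value, within the range of NRT2.3's own 0.0604 to 0.375 FPKM. With it the WT groups no longer overlapped, at log2 ratios of at most 1.95 under mannitol and at least 2.39 in control. The smallest possible p, given next, needed that separation and so rests on the added 0.1. The log2 ratio differed by -1.30 between mannitol and control (exact permutation p 0.005, the smallest possible, adjusted p 0.01). It differed by 0.66 between raf-b2/3 and WT (exact permutation p 0.01, adjusted p 0.013), which did not pass without raf-b2/3 control 2 (0.60, adjusted p 0.08) or raf-b2/3 control 3 (0.61, adjusted p 0.08). The small counts of NRT2.3 limit these ratios. The other 5 of the 7 planned pairs of genes had no value, because each needed NRT2.1 or AMT1-2.

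Without mannitol, no transporter gene passed the test between raf-b2/3 and WT, where 1.81% of loci did (1.22% higher and 0.59% lower in raf-b2/3). The controls were nevertheless apart by library for some of them. NAR2.1 was 1.84-fold higher in raf-b2/3 control (log2 0.71, SE 0.23, limma adjusted p 0.16, unadjusted p 0.00835). AMT1-3 was 1.83-fold higher (log2 0.75, SE 0.26, limma adjusted p 0.20, unadjusted p 0.0135). In FPKM the raf-b2/3 controls did not overlap the WT controls for NAR2.1, AMT1-3 and NRT2.2 of the 6 genes, against 20.5% of all loci. For NRT2.2 the gap came from library depth, with 1 fragment in both raf-b2/3 control 1 (0.01412 FPKM) and WT control 1 (0.01407 FPKM). Both differences were smaller without WT control 2, the library low in root markers, at 0.41 (adjusted p 0.40) for NAR2.1 and 0.40 (adjusted p 0.49) for AMT1-3. NRT1.1B differed by 0.18 (adjusted p 0.48) and AMT1-1 by 0.27 (adjusted p 0.41), and AMT1-1 by 0.09 without WT control 2. NRT2.2, with 13 fragments in raf-b2/3 control and 1 in WT control, had a ratio of 13.0 with a 95% interval of 1.96 to 554. Of the 13, 10 came from raf-b2/3 control 2, without which the ratio was 4.56 (0.367 to 240). It did not pass without the filter by limma (adjusted p 0.55) or limma-voom (adjusted p 0.24), where 1.49% and 1.95% of loci passed.

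Under mannitol, none of the 4 tested genes passed between raf-b2/3 and WT, where 15.8% of loci did. Their log2 differences were 0.07 for NRT1.1B (limma adjusted p 0.74), 0.27 for AMT1-1 (0.23), 0.14 for AMT1-3 (0.77, and -0.04 without raf-b2/3 mannitol 3) and 0.10 for NAR2.1 (0.81). NRT2.2 was higher in raf-b2/3 mannitol than in WT mannitol, with 61 fragments against 12 and a ratio of 5.16 (95% interval 2.75 to 10.5), or 8.18 (3.32 to 26.1) without WT mannitol 3. It passed without the filter by limma (log2 0.29, adjusted p 0.0038) and by limma-voom (log2 2.38, adjusted p 0.017), where 13.4% and 14.7% of loci passed. It was the only one of the 6 whose raf-b2/3 mannitol and WT mannitol libraries did not overlap, against 31.9% of all loci. The authors' deposited table holds no such comparison.

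The mannitol response itself did not differ between genotypes past the threshold for any of the 4 tested genes, where 2.98% of loci passed. The raf-b2/3 response minus the WT response was -0.61 (SE 0.32, limma adjusted p 0.38) for NAR2.1 and -0.61 (SE 0.37, limma adjusted p 0.46) for AMT1-3. Without WT control 2 it was -0.31 (adjusted p 0.57) and -0.26 (adjusted p 0.70). The falls of both genes were therefore not shown to differ between the genotypes, although the falls in WT were smaller in value.

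**Figure D4:**
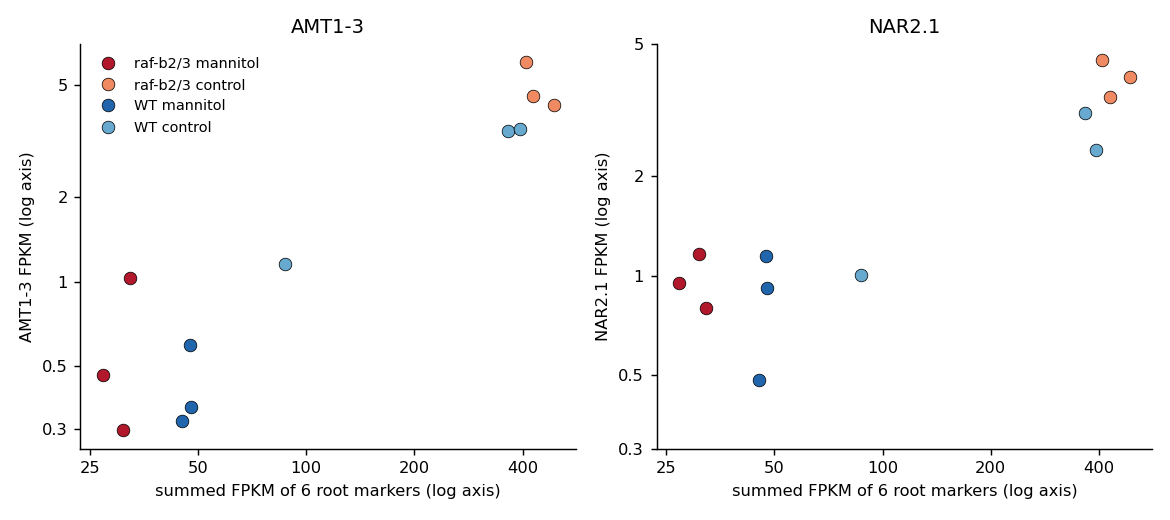
FPKM of AMT1-3 and NAR2.1 (vertical axes, logarithmic) against the summed FPKM of 6 root marker genes (horizontal axis, logarithmic), 1 point per library. LSI1 and LSI2 made up most of this sum in the controls. The mannitol libraries lay at sums of 27.2 to 47.9 with low values of both genes, and WT control 2 lay at 87.3, between them and the other controls.

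The order of levels differed with treatment. FPKM is scaled to gene length, so levels of different genes can be set side by side. In raf-b2/3 mannitol the order was NRT1.1B, AMT1-1, NAR2.1, AMT1-3, NRT2.2 and NRT2.3, and NRT1.1B overlapped AMT1-1, NAR2.1 overlapped AMT1-3, and AMT1-3 overlapped NRT2.2. In raf-b2/3 control it was AMT1-1, NRT1.1B, AMT1-3, NAR2.1, NRT2.3 and NRT2.2, with overlap between NRT1.1B and AMT1-3 and between AMT1-3 and NAR2.1. In WT mannitol it was NRT1.1B, AMT1-1, NAR2.1, AMT1-3, NRT2.3 and NRT2.2, with overlap between NAR2.1 and AMT1-3 and between the NRT2 genes. In WT control it was AMT1-1, NRT1.1B, AMT1-3, NAR2.1, NRT2.3 and NRT2.2, with overlap between AMT1-1 and NRT1.1B and between AMT1-3 and NAR2.1. Between groups, NRT1.1B and AMT1-1 were highest in raf-b2/3 mannitol, overlapping WT mannitol, and lowest in WT control, overlapping raf-b2/3 control.

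Other genes of nitrogen transport were examined in a list of 7, which holds 6 ammonium transporters and NAR2.2. Of 14 nitrate entries, only NAR2.2 had a name that RefSeq bore out, so the list holds no nitrate carrier. AMT2-2 did not pass the filter, NAR2.2 passed it only through raf-b2/3 mannitol and AMT3-1 only through WT mannitol, so the list was counted in the fit without a filter. In raf-b2/3, 3 of the 7 rose, 1 fell and 3 did not pass (median log2 0.25, all loci 0.04), where 51.8% of loci passed. In WT, 4 rose, 0 fell and 3 did not pass (median 0.27, all loci 0.04), where 51.9% of loci passed. The gene that fell in raf-b2/3, AMT2-2 (-0.62, limma adjusted p 0.0032), was named after its values were seen. AMT3-2, an ammonium transporter of another subfamily, averaged 7.61 ± 1.44 FPKM in raf-b2/3 mannitol against 2.36 ± 0.741 in raf-b2/3 control, and 5.35 ± 0.0642 in WT mannitol against 1.82 ± 0.557 in WT control. Its log2 change was 1.37 (limma adjusted p 7.5e-05) in raf-b2/3 and 1.19 (limma adjusted p 1.9e-04) in WT. AMT3-3 of the same subfamily rose by 0.62 (limma adjusted p 0.0031) in raf-b2/3 and 0.80 (limma adjusted p 5.8e-04) in WT. In WT, AMT3-1 (0.46, limma adjusted p 0.0053 without the filter) and AMT2-1 (0.27) rose too, and these were named after their values were seen. With the filter, the AMT2-1 call ended under median-of-ratios scaling (adjusted p 0.085), quantile normalization (0.17), without WT control 3 (0.052) and without WT mannitol 3 (0.071). With the filter but without WT control 2, 1 gene of the list also fell in WT, AMT2-3 (-0.53, limma adjusted p 0.011).

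NAR2.2 (LOC_Os04g40410), the paralog of NAR2.1, rose in raf-b2/3, where NAR2.1 fell. It averaged 1.70 ± 0.293 FPKM in raf-b2/3 mannitol against 0.554 ± 0.0839 in raf-b2/3 control, and 0.576 ± 0.221 in WT mannitol against 0.352 ± 0.116 in WT control. It reached 1 FPKM only in the 3 raf-b2/3 mannitol libraries, so its values are from the fit without a filter. Its log2 change in raf-b2/3 was 0.79 (limma adjusted p 1.4e-04), with a WT change of 0.22 (adjusted p 0.14) and a difference between the responses of 0.57 (adjusted p 0.10). Under mannitol it was higher in raf-b2/3 than in WT by 0.78 (limma adjusted p 0.0013). AMT2-3, named after its values were seen, was the other gene of the list that was higher in raf-b2/3 mannitol (log2 0.9995, limma adjusted p 0.0088 without the filter). Of all loci, 13.4% passed between genotypes under mannitol in that fit. No gene of the list passed between the controls, where 1.49% of loci did.

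Of 13 listed genes that assimilate the nitrogen taken up, 7 had names that RefSeq bore out and were counted. In raf-b2/3, 2 of the 7 rose and 5 fell (median log2 -1.14, all loci 0.07). In WT, 2 rose and 5 fell as well (median -0.78, all loci 0.09). Over all loci tested, 35.6% rose and 26.7% fell in raf-b2/3, and 37.7% rose and 25.5% fell in WT. GS1-2, a cytosolic glutamine synthetase of roots that assimilates ammonium, averaged 55.1 ± 12.2 FPKM in raf-b2/3 mannitol against 160.6 ± 6.91 in raf-b2/3 control, and 55.0 ± 8.82 in WT mannitol against 150.0 ± 54.5 in WT control. Its log2 change was -1.55 in raf-b2/3 and -1.37 in WT (limma adjusted p 1.5e-04 and 3.8e-04). GOGAT2, a glutamate synthase, changed by -1.61 and -1.33 (limma adjusted p 6.0e-06 and 2.4e-05), and was lower in raf-b2/3 than in WT both under mannitol (-1.10, adjusted p 0.0011) and without it (-0.82, adjusted p 0.030). The call without mannitol ended under the replicate block (adjusted p 0.053) and without any 1 of the WT controls (0.068 to 0.087), WT mannitol 1 (0.0505), raf-b2/3 control 2 (0.063) or raf-b2/3 control 3 (0.057). The nitrate reductase gene NIA1 changed by -1.14 and -0.76, and FD-GOGAT and GS2 fell as well; these 3 were named after their values were seen. GS1-1, another glutamine synthetase, rose by 0.41 and 0.27 (limma adjusted p 0.0015 and 0.016), and its WT call ended under median-of-ratios scaling (adjusted p 0.098), without WT control 2 (0.068) and without WT mannitol 3 (0.056).

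GS1-3 (LOC_Os03g50490), the remaining glutamine synthetase of the cytosol, was the 1 gene of the transport, assimilation and signalling lists whose response differed between genotypes. Of all loci tested, 2.98% passed by the same test. It averaged 3.36 ± 0.465 FPKM in raf-b2/3 mannitol against 0.712 ± 0.191 in raf-b2/3 control, and 10.5 ± 2.65 in WT mannitol against 0.611 ± 0.203 in WT control (SD, n = 3). The log2 change was 1.35 in raf-b2/3 and 2.81 in WT, and the raf-b2/3 response minus the WT response was -1.47 (limma adjusted p 0.0063). By limma-voom on recovered fragments it was -1.85 and did not pass (adjusted p 0.11). GS1-3 reached 1 FPKM in every mannitol library and in no control library, so it passed the filter only through the mannitol groups. Without the filter, the difference on log2(FPKM + 1) passed too.

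Of 12 listed genes of nitrate signalling, 7 had names that RefSeq bore out and were counted. In raf-b2/3, 3 of the 7 rose, 1 fell and 3 did not pass (median log2 0.00). In WT, 4 rose, 1 fell and 2 did not pass (median 0.45). The shares that passed, 4 of 7 and 5 of 7, stand beside 62.2% and 63.3% of all loci. SPX4, which holds NLP3 back until nitrate reaches NRT1.1B, rose by 0.61 in raf-b2/3 and 0.62 in WT (limma adjusted p 7.9e-05 and 6.1e-05). NLP3, a transcription factor of the nitrate response, fell in both, with log2 changes of -0.59 and -0.75 (limma adjusted p 1.2e-04 and 1.5e-05). It averaged 22.9 ± 2.25 FPKM in raf-b2/3 mannitol against 34.9 ± 1.64 in raf-b2/3 control, and 19.8 ± 0.482 in WT mannitol against 34.1 ± 4.35 in WT control. The calcium sensor gene CBL1 rose by 0.55 and 0.57 (limma adjusted p 7.7e-06 and 4.6e-06). NLP1 rose in both genotypes (0.29 and 0.45) and the kinase gene CIPK23 in WT (0.50), both named after their values were seen. The raf-b2/3 call of NLP1 ended under median-of-ratios scaling (adjusted p 0.066), quantile normalization (0.11), without raf-b2/3 control 2 (0.086) and without raf-b2/3 mannitol 1 (0.090). No gene of this list passed between genotypes, where 15.8% of loci did under mannitol and 1.81% without it.

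Most root markers fell under mannitol, as NAR2.1 and AMT1-3 did, but by unlike amounts. In raf-b2/3 the log2 change was -4.75 for LSI2, -4.04 for LSI1, -3.50 for YSL15, -1.895 for NRAMP5, -0.96 for CASP1 and 0.12 for IRT1. In WT it was -4.22, -1.885, -2.81, -1.887, -0.58 and -0.44 in the same order. Of 6, 5 fell and 1 did not pass in raf-b2/3 (median log2 -2.70), and 4 fell and 2 did not pass in WT (median -1.89), while without WT control 2 all 6 fell in WT. Over all loci, 26.7% fell in raf-b2/3 and 25.5% in WT. The raf-b2/3 call of CASP1 ended without raf-b2/3 control 3 (adjusted p 0.062) or raf-b2/3 mannitol 3 (0.053). Between the controls none passed, where 1.81% of loci did, with a median of 0.68 towards raf-b2/3. Without WT control 2, LSI1 was lower in raf-b2/3 mannitol than in WT mannitol (-1.12, limma adjusted p 2.1e-04), LSI2 was higher (0.43, adjusted p 0.034), and the responses of LSI1 differed (-1.51, adjusted p 0.0030). Of 4 shoot markers, 2 fell and 2 did not pass in either genotype (medians -0.54 and -0.81). The lower shoot sum came mostly from RBCS2 (log2 -1.15 in raf-b2/3 and -1.37 in WT) and RCA (-1.04 and -1.37). CAB1R (0.25 and 0.11) and CAB2R (-0.03 and -0.25) did not pass. Under some alternatives CAB1R passed as a rise in both genotypes and CAB2R as a fall in WT. NRT1.1B and AMT1-1 rose, and the part of the markers' changes in this was not tested.

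For each tested transporter gene, the most alike of 33 list genes was found as the smallest root mean square difference of log2(FPKM + 1) values over the 12 libraries, each gene centred on its mean. For NRT1.1B it was AMT3-2 (0.226, beside an own spread of 0.636 for NRT1.1B), followed by AMT1-1 (0.323). For AMT1-1 it was AMT3-3 (0.186, own spread 0.407), followed by SPX4 (0.205). For NAR2.1 it was the root marker CASP1 (0.236, own spread 0.631), followed by FD-GOGAT (0.255). For AMT1-3 it was GS1-2 (0.341, own spread 0.901), followed by the root marker NRAMP5 (0.358) and NAR2.1 (0.365). These values describe the 12 libraries, which share the same 4 groups, and they carry no test.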

How the data were processed

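The authors deposited 1 table of FPKM values for 29358 loci in the 12 libraries. It also holds the authors' mean per group, log2 fold changes of mannitol over control in both genotypes, and p-values. The deposited p-values are not said to be raw or adjusted. Per the submitters' processing notes, the tools included Trimmomatic, edgeR and DESeq2, and the build was IRGSP-1.0. The labels' protocols describe a strand-specific kit and paired reads of 150 bases. How reads were aligned, annotated and counted by strand is not given in the sources used here.

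Whole fragments were recovered from the FPKM steps with a tolerance of 0.01 fragment, for all 29358 loci. The test was limma-trend (limma 3.58.1, R 4.3.3) on log2(FPKM + 1) with 4 group means (12.1 degrees of freedom), the filter on low values given with the results, and Benjamini-Hochberg adjustment over 22371 loci. The script was tested on simulated data. Alternatives were pseudocount 0.1, no filter, median-of-ratios scaling, quantile normalization, a replicate block, limma-voom on recovered fragments, each library left out, and WT control 2 with raf-b2/3 mannitol 3 left out. Limma-voom without a filter was added after seeing the data. Ratios within libraries used permutation within strata (scipy 1.17.1).

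The genes and lists were chosen with earlier results of these data known. Of the list entries, those whose names a RefSeq gene table (assembly ASM3414082v1) bore out by chromosome and order were used, 31 of 63; of the 8 transporter genes 7 matched, and NRT1.1B rests on the list alone. Named from each other list were the 2 largest rises and 2 largest falls past the adjusted p per genotype, and any with a differing response. Exceptions are marked, apart from the root and shoot markers, which are all named whether or not that rule picked them. RefSeq carries other locus numbers and another build, so no coordinates are given.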

Additional observations from a re-analysis of the deposited data

Results flagged for a closer look

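The response of GS1-3 (LOC_Os03g50490), a cytosolic glutamine synthetase gene, differed between genotypes by the test of the difference itself. Of all loci tested, 2.98% passed that test. The raf-b2/3 response minus the WT response was -1.47 on the log2(FPKM + 1) scale (limma adjusted p 0.0063), with 3.36 ± 0.465 FPKM in raf-b2/3 mannitol, 0.712 ± 0.191 in raf-b2/3 control, 10.5 ± 2.65 in WT mannitol and 0.611 ± 0.203 in WT control. By limma-voom on recovered fragments the difference was -1.85 and did not pass (adjusted p 0.11). The gene passed the filter on low values only through the mannitol groups.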

How the results depend on the processing

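The direction of each tested transporter gene's mannitol response was the same under all 20 alternatives in both genotypes, and the calls of NRT1.1B, AMT1-1 and AMT1-3 held under each. NRT1.1B ranged from 1.08 to 1.31 in raf-b2/3 and 1.16 to 1.45 in WT (log2), AMT1-1 from 0.60 to 0.77 and 0.52 to 0.80, AMT1-3 from -3.21 to -1.77 and -2.53 to -1.12, and NAR2.1 from -2.03 to -1.26 and -1.27 to -0.51. The WT call of NAR2.1 ended without WT control 1 or WT mannitol 2, as given above. The differences between genotypes and between responses passed under none of the 20 for any of the 4 genes. The cause of the changes that follow was not tested. Loci past the adjusted p and a log2 change of 1 in size were counted on FPKM + 1, where that is not 2-fold in FPKM at low levels. In raf-b2/3 they were 2779, but 4116 with pseudocount 0.1, 4259 by limma-voom and 5928 by limma-voom without a filter. In WT they were 3085, but 4412, 4522 and 6049 in the same order. Between genotypes under mannitol 509 passed that rule, but 805 with pseudocount 0.1, 894 by limma-voom and 1644 without a filter as well. Between controls 133 passed it, but 341 by limma-voom without a filter. The response differed at 666 loci, but at 367 by limma-voom and 349 without a filter as well. Leaving out 1 library gave 263 to 745 loci for that difference, fewest without WT mannitol 1, with 312 without WT mannitol 2, 370 without raf-b2/3 mannitol 2, 398 without raf-b2/3 control 3 and 440 without raf-b2/3 control 1. It gave 2048 to 3861 between genotypes under mannitol (3544 with all), with 2048 without WT mannitol 1, 2160 without WT mannitol 2 and 2301 without raf-b2/3 mannitol 2. It gave 175 to 425 between controls (404 with all), with 227 without WT control 2, 175 without raf-b2/3 control 2 and 195 without raf-b2/3 control 3. In raf-b2/3, 7957 loci rose and 5966 fell, but 6691 and 7119 under quantile normalization. In WT, 8440 loci rose and 5711 fell, but 6777 and 7033 under quantile normalization, where the median of all loci was -0.01 in place of 0.09, with NRT1.1B at 1.16, AMT1-1 at 0.55, NAR2.1 at -0.80 and AMT1-3 at -1.38.

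Replicate numbers are not stated to pair the libraries, and the values showed no sign of pairing. Differently numbered libraries of 2 groups correlated at -0.28 to 0.33 in their deviations from the group mean. Deviations of 18 same-numbered pairs correlated at -0.31 to 0.27, with 4 over 0.1, and with the replicate block 13856 loci passed in raf-b2/3, 14107 in WT, 556 in the difference of responses, 3374 between genotypes under mannitol and 333 between controls. No call of a transporter gene changed under the block. NRT2.2 had at most 22 fragments in a library and NRT2.3 at most 31, and their intervals are wide accordingly.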
